A study of Homo sapiens with 16 samples.

Results

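The S100 calcium-binding proteins are a family of small proteins of vertebrates, and 10 of their genes were described here across 2 lung cancer cell lines: S100A2, S100A3, S100A4, S100A6, S100A10, S100A11, S100A13, S100A14, S100A16 and S100P. They were taken by name, all 10 had a row, and they are 10 of the 18227 genes measured. The study sequenced the mRNA of A549 and H2023 cells, both long-established lines derived from human non-small cell lung tumours, in 16 libraries. In each line, cells labelled wild-type were compared with cells labelled as a ZC3H12A knockout. Both genotypes were grown under normal conditions (3 days) or under conditions that enrich stem-like cells (7 days), called oncosphere culture below after the library titles. This gave 8 groups of 2 libraries. The titles of the knockout libraries name 1 clone in each line, so a difference from wild type holds the edit together with whatever else sets that clone apart. Culture type and days in culture changed together and cannot be told apart. The targeted gene, ZC3H12A, codes for the RNase Regnase-1, which degrades selected mRNAs, among them many of inflammatory genes.

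S100 proteins carry a pair of EF-hand loops that bind calcium, and most act as dimers. Binding of calcium exposes a surface through which the protein docks on a partner, such as an annexin or a cytoskeletal protein. S100A10 is an exception: its loops no longer bind calcium, and it is held with annexin A2 in a complex at the plasma membrane. Some members are also released from cells and bind the receptors AGER (RAGE) and TLR4. Most S100 genes lie in a cluster on the long arm of chromosome 1, and several are used as markers of epithelial tumours.

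In the GENCODE release 29 annotation of GRCh38, 9 of the 10 members lay on chromosome 1, all on the minus strand. Of these, 7 stood within 96762 bp, from S100A6 to S100A13, and S100A10 and S100A11 stood apart, with 1486692 bp between the end of S100A11 and the start of S100A6. S100P lay alone on chromosome 4, at 6693069 to 6697170 on the plus strand. S100A3 and S100A4 overlap on the same strand, so reads from the shared stretch could be given to either gene and their values are uncertain to that extent. S100A13 overlaps S100A1 on the opposite strand. The library kit marks strand, but whether the counting used it is not given in the sources used here.

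The DNA just before the start site is shown for the 4 members that passed the test between genotypes in A549 cells, because these genes share neither a level nor a direction of change. Each run holds the 250 bases before a RefSeq start site in GRCh38.p14, read 5′ to 3′ on the strand of the gene. Capitals mark a match, on either strand, to a TATA box (TATAAA), a GC box (GGGCGG), an AP-1 site (TGANTCA), a cyclic AMP element half-site (TGACGT) or a STAT site (TTCNNNGAA).
S100P, chr4:6693628-6693877, plus strand: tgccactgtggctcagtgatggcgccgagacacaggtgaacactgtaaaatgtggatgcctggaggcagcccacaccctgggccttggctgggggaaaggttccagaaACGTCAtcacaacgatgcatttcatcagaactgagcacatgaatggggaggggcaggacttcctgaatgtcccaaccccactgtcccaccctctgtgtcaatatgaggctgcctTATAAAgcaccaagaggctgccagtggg
S100A14, chr1:153616326-153616575, minus strand: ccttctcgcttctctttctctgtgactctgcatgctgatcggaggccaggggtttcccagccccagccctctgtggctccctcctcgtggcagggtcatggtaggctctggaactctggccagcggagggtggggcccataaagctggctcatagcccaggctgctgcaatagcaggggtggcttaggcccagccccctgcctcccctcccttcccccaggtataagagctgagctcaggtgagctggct
S100A2, chr1:153565845-153566094, minus strand: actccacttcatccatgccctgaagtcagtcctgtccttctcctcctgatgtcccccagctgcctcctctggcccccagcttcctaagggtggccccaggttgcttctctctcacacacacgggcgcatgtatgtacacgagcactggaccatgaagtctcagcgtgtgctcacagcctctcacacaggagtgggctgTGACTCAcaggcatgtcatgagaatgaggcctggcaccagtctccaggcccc
S100A16, chr1:153609356-153609605, minus strand: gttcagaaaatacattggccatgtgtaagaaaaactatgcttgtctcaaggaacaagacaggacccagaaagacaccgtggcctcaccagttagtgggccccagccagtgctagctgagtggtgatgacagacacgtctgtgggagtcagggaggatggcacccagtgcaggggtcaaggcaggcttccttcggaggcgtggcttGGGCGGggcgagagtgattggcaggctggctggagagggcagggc
The S100P window held TATAAA with its first base at position -28 and TGACGT at -142, counted from the start site. The S100A2 window held TGANTCA at -52, and the S100A16 window GGGCGG at -45. None of the 5 motifs was in the S100A14 window, which says only that these letters are absent there. RefSeq lists a further start for S100A2 and for S100A16, and neither of those windows held a match. Over all 14 entries of the 10 members, TATAAA was in 3 (S100P, S100A4 and 1 start of S100A13), GGGCGG in 6, TGANTCA in 2, and TGACGT and TTCNNNGAA in 1 each. Of 35116 promoter windows of the same length in the table, 10.7% held TATAAA, 42.6% GGGCGG, 6.57% TGANTCA, 7.1% TGACGT and 6.57% TTCNNNGAA.

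Values are TPM, a level scaled for transcript length and for the library total, as deposited by the authors. A level of 1 TPM was reached by 13824 to 14508 genes, depending on the library. The depth of single libraries is unknown because TPM does not keep it. The genes of the mitochondrial genome took 10.3% to 18.7% of TPM in the normal cultures, less than in the oncospheres (19.5% to 25.6%). The culture comparisons were therefore repeated after every library was centred on its median gene and without the mitochondrial genes, and calls that changed are given below. Of the epithelial markers, KRT8 ranged from 765 to 5982 TPM and KRT18 from 666 to 4515 TPM. KRT19 ranged from 0.29 to 798 TPM, with a median of 390 TPM in H2023 but of 6.02 TPM in A549. CLDN4 was at most 7.18 TPM, and EPCAM was low in A549, with a median of 1.14 TPM against 19.8 TPM in H2023. Of 6 leukocyte markers 4 were measured, and of these LAPTM5 stayed at or below 0.77 TPM while CD68 ranged from 28.7 to 179 TPM. Of 6 fibroblast markers 3 were measured, with COL1A1 between 1.11 and 8.46 TPM, and the 1 endothelial marker measured, PECAM1, reached 2.76 TPM. NAPSA, the 1 lung epithelial marker measured of 6, lay between 1.02 and 6.03 TPM.

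ZC3H12A mRNA went against the label in 3 of the 4 genotype comparisons. In A549 normal culture it measured 30.7 and 34.9 TPM in the wild-type libraries against 16.9 and 19.9 TPM in the other libraries. In A549 oncospheres the values were 48.5 and 49.2 against 60.2 and 55.6 TPM. In H2023 they were 26.8 and 29.9 against 41.5 and 41.5 TPM in normal culture, and 32.5 and 26.4 against 94.6 and 69.2 TPM in oncospheres. The groups did not overlap in any of the 4, and the libraries labelled knockout were the higher ones in 3. An edit that stops the protein need not lower the mRNA, and no protein data were used here. Directions below are therefore those of the libraries labelled knockout.

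The members spanned the whole range of expression. Together they made up 0.433% to 1.04% of TPM in a library. By median level over the 16 libraries, S100A6 ranked 34th of all genes, S100A4 116th, S100A11 120th, S100A10 146th and S100P 218th. S100A16 ranked 1032nd, S100A13 1542nd, S100A3 5958th, S100A2 11605th and S100A14 16383rd. S100A6, which binds the adaptor protein CACYBP, was the highest member in 14 libraries, and S100A11 and S100P were the highest in 1 library each. S100P was the most variable of the abundant members: its highest group mean was 104.5 times its lowest. S100A11, a partner of annexin A1, was the steadiest, with a ratio of 1.51 between its highest and lowest group. When the 8 groups were ordered by mean S100A11, the libraries of all 7 neighbouring pairs overlapped.

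**Figure D1:**
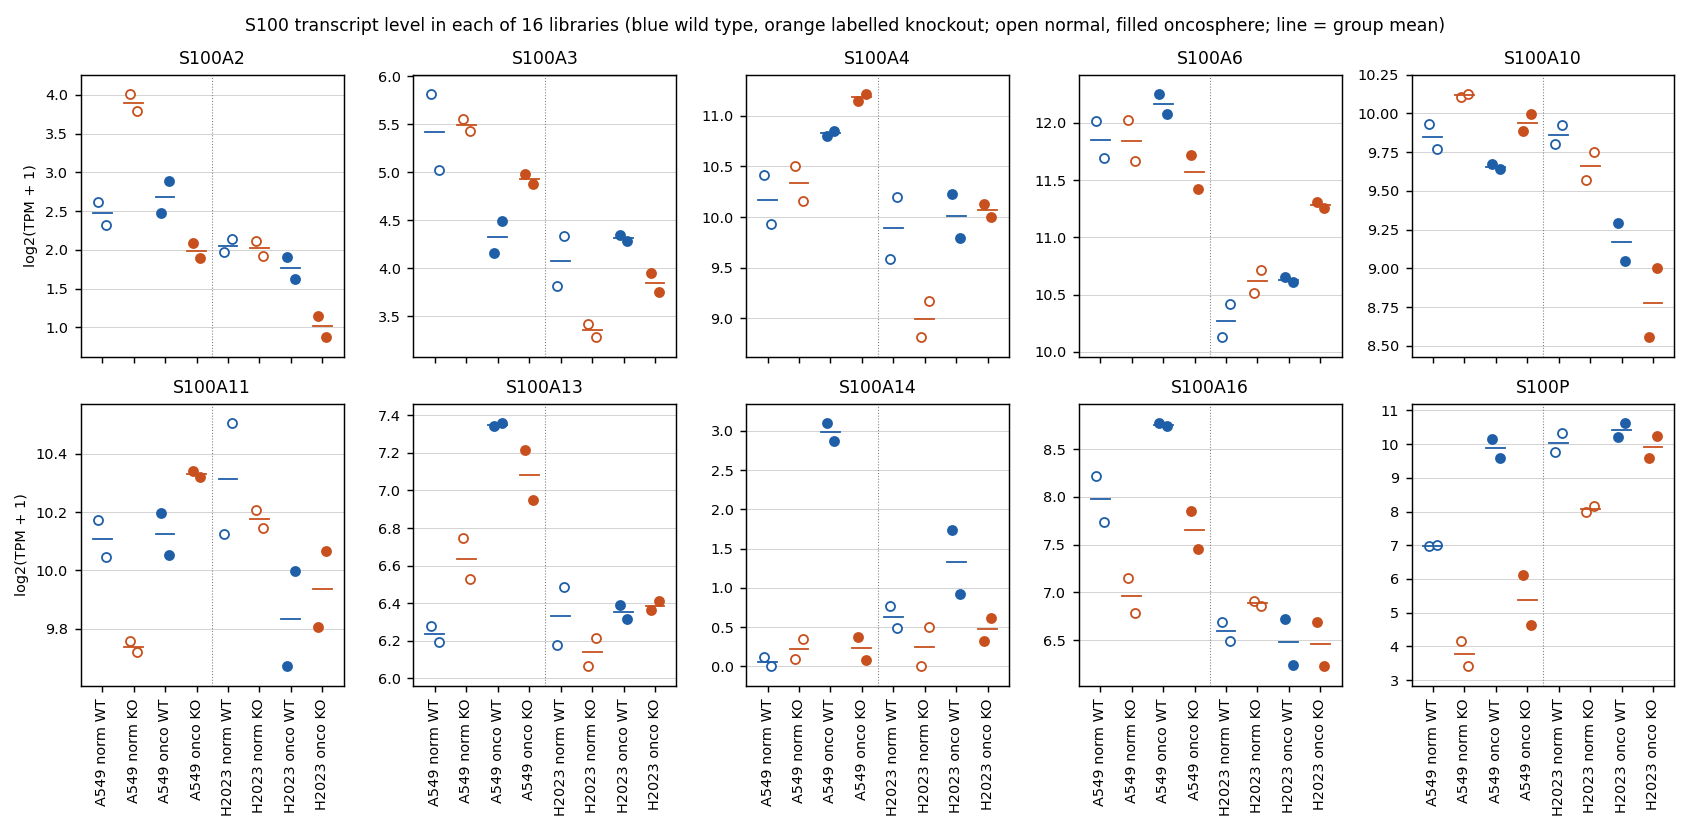
Each panel shows 1 S100 gene, with its level as log2(TPM + 1) on an axis of its own range, against the 8 groups; points are libraries (blue wild type, orange labelled knockout, open normal culture, filled oncosphere culture) and lines are group means. S100P separates the A549 genotypes in both cultures, S100A14 is above 6 TPM only in the 2 wild-type A549 oncosphere libraries, and the S100A11 group means lie within 0.59 of each other.

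Genotype was compared within each line and culture, which is the comparison the deposited tables were made for. In A549 cells S100P fell in both cultures, S100A16 fell in both, S100A14 fell in oncospheres and S100A2 rose in normal culture. In H2023 cells no member passed the limma test. The test was limma on log2(TPM + 1) over the 4 libraries, fitted on all genes with Benjamini-Hochberg adjustment. On that scale the change of genes with low values is understated. In A549 normal culture 3 of 10 members passed, against 10.8% of all genes, and in A549 oncospheres 3 of 10, against 13.2%. In H2023, 0 members and 0.0% of genes passed in each culture. An unadjusted p under 0.05 was found there for 4 members and 18.2% of genes in normal culture and for 3 members and 15.5% of genes in oncospheres. The libraries of the genotypes did not overlap for 6 members in A549 normal culture (61.7% of genes), 10 in A549 oncospheres (60.5%), 6 in H2023 normal culture (50.6%) and 5 in H2023 oncospheres (47.5%). With 2 libraries against 2, an exact permutation test of a single gene cannot go below 0.333. The labels do not say whether the 2 libraries of a group came from separate cultures, so the p-values measure only the spread between them.

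S100P, a member first described in placenta that binds and activates ezrin, had the largest genotype difference on the log2(TPM + 1) scale. In A549 normal culture it measured 124 and 127 TPM in the wild-type libraries against 16.8 and 9.59 TPM in libraries labelled knockout. In A549 oncospheres the values were 1144 and 774 TPM against 68.0 and 24.0 TPM. No library labelled knockout came near a wild-type one of the same culture. The wild-type mean was 9.50 times the other in normal culture, with a log2 fold change of -3.20 (SE 0.25, limma adjusted p = 0.00678), and 20.9 times in oncospheres, with -4.51 (SE 0.49, limma adjusted p = 0.0074). Without 1 of the 4 libraries the fold change ran from -3.58 to -2.83 in normal culture and from -5.24 to -3.77 in oncospheres. The adjusted p then rose to between 0.0631 and 0.15 and between 0.0554 and 0.116, so the call was lost whichever library was left out.

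In H2023 normal culture S100P measured 864 and 1292 TPM in wild type and 251 and 289 TPM in libraries labelled knockout. The groups did not overlap and the wild-type mean was 4.0 times as high, with a log2 fold change of -1.97 (SE 0.23, limma adjusted p = 0.121). S100P passed there when genes under a mean of 1 TPM were left out, when libraries were centred on the median gene and in a fit over all 16 libraries. Centring called 109 genes higher and 213 lower in that comparison, where the main test called 0. The shares of all genes called in the other 2 settings are not given here. The authors' deposited table also called it, at -2.02 with an adjusted p of 8.51e-21, beside 10.8% of the genes with an adjusted p in that table. In H2023 oncospheres S100P measured 1188 and 1572 TPM against 773 and 1214 TPM, and here the groups overlapped (log2 fold change -0.50, SE 0.30, limma adjusted p = 0.49).

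S100A14, a member found mainly in epithelia, was near 0 in all but a few libraries. It measured 7.56 and 6.32 TPM in the wild-type A549 oncospheres and 0.30 and 0.06 TPM in those labelled knockout. The log2 fold change was -2.75 (SE 0.21, limma adjusted p = 0.00358), with a wild-type mean 38.6 times the other. The authors' deposited table gave -4.85 (SE 0.72), beside -4.41 (SE 0.72) for S100P. The gap between them is smaller than either standard error, and which fall was larger as a ratio was not tested. In A549 normal culture it was 0.09 and 0.00 TPM in wild type and 0.07 and 0.28 TPM in libraries labelled knockout, so there was no level from which it could fall. In H2023 oncospheres the values were 2.34 and 0.90 against 0.25 and 0.54 TPM. The groups were apart there too, but the difference of -0.86 did not pass (SE 0.32, limma adjusted p = 0.333). Leaving out 1 library of the A549 oncosphere fit gave -2.90 to -2.61, with an adjusted p of 0.0575 to 0.0784, and no call.

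S100A16, a widely expressed member, was lower in the libraries labelled knockout of A549 by a similar amount in both cultures. It measured 296 and 212 TPM against 141 and 109 TPM in normal culture, and 436 and 426 TPM against 230 and 174 TPM in oncospheres. The groups did not overlap in either. The log2 fold change was -1.01 (SE 0.20, limma adjusted p = 0.0421) and -1.10 (SE 0.15, limma adjusted p = 0.0133). Without 1 library the call was lost in each case, with adjusted p up to 0.226 and 0.136. In H2023 normal culture the libraries labelled knockout were the higher ones, at 120 and 115 against 103 and 89.1 TPM, a difference of 0.29 that did not pass (SE 0.10, limma adjusted p = 0.249). In H2023 oncospheres the groups overlapped.

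S100A2, a member best known from the basal cells of epithelia, was the one that rose. In A549 normal culture it measured 5.16 and 4.01 TPM in wild type and 15.1 and 12.8 TPM in libraries labelled knockout, a ratio of 3.04 and a log2 fold change of 1.42 (SE 0.19, limma adjusted p = 0.0184). In A549 oncospheres the order was the opposite, 4.57 and 6.39 TPM against 3.24 and 2.72 TPM, without passing (-0.69, SE 0.23, limma adjusted p = 0.111). It did pass there, as lower, in a fit over all 16 libraries. In H2023 the groups overlapped in normal culture, and in oncospheres the wild type was higher at 2.74 and 2.07 against 1.22 and 0.83 TPM (-0.75, SE 0.19, limma adjusted p = 0.252). The A549 rise was between 1.27 and 1.57 without 1 library, with an adjusted p of 0.137 to 0.155. In the same libraries the summed TPM of the 6 epithelial markers was 7417 to 7626 in wild type and 1451 to 2524 in those labelled knockout. Its part in the A549 normal culture results for S100A2, S100A16 and S100P was not tested. In A549 oncospheres the sums were 5237 to 6575 and 4998 to 7198, which overlap. In H2023 they were lower in wild type in both cultures, 5888 to 7300 against 9817 to 10677 in normal culture and 3424 to 3450 against 6555 to 7089 in oncospheres. Their part in the H2023 values was not tested either.

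The remaining 6 members did not pass the main limma test between genotypes in any line or culture, and 2 of them were called in the authors' deposited tables. S100A6 measured 4878 and 4309 TPM in wild-type A549 oncospheres and 3365 and 2748 TPM in those labelled knockout. In H2023 oncospheres the order was reversed, with 1608 and 1565 TPM against 2543 and 2452 TPM. The groups were apart in both. The limma fold changes were -0.59 (SE 0.18, adjusted p = 0.0987) and 0.65 (SE 0.16, adjusted p = 0.244). The authors' deposited tables called both, at -0.61 (adjusted p = 0.00105) and 0.60 (adjusted p = 0.0131). For S100A10 in A549 normal culture, at 975 and 873 TPM against 1102 and 1116 TPM, the authors' deposited table gave 0.33 (adjusted p = 0.0408) and limma gave 0.27 (SE 0.13, adjusted p = 0.238). Called in the authors' deposited tables were 4 members in A549 normal culture (22.1% of genes with an adjusted p), 4 in A549 oncospheres (20.7%), 1 in H2023 normal culture (10.8%) and 1 in H2023 oncospheres (5.07%).

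S100A4, which binds non-muscle myosin and is known for its link to metastasis, measured 766 and 1174 TPM in wild-type H2023 normal culture and 449 and 575 TPM in libraries labelled knockout. The groups were apart, but the wild-type libraries differed from each other by nearly as much as from the others (-0.90, SE 0.26, limma adjusted p = 0.226). S100A3, a cysteine-rich member of hair cuticle, gave 0.61 in A549 oncospheres (16.9 and 21.4 against 30.7 and 28.5 TPM, limma adjusted p = 0.0622). S100A13, which takes part in the release of FGF1, gave 0.40 in A549 normal culture (76.5 and 72.1 against 106 and 91.2 TPM, limma adjusted p = 0.0791). It passed when libraries were centred on the median gene. S100A11 lay between -0.37 and 0.20 on the log2 scale in all 4 comparisons. The median log2 fold change of the 10 members was 0.11 in A549 normal culture, -0.43 in A549 oncospheres, -0.20 in H2023 normal culture and -0.21 in H2023 oncospheres. The medians over all genes were -0.03, 0.03, 0.01 and 0.06.

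**Figure D2:**
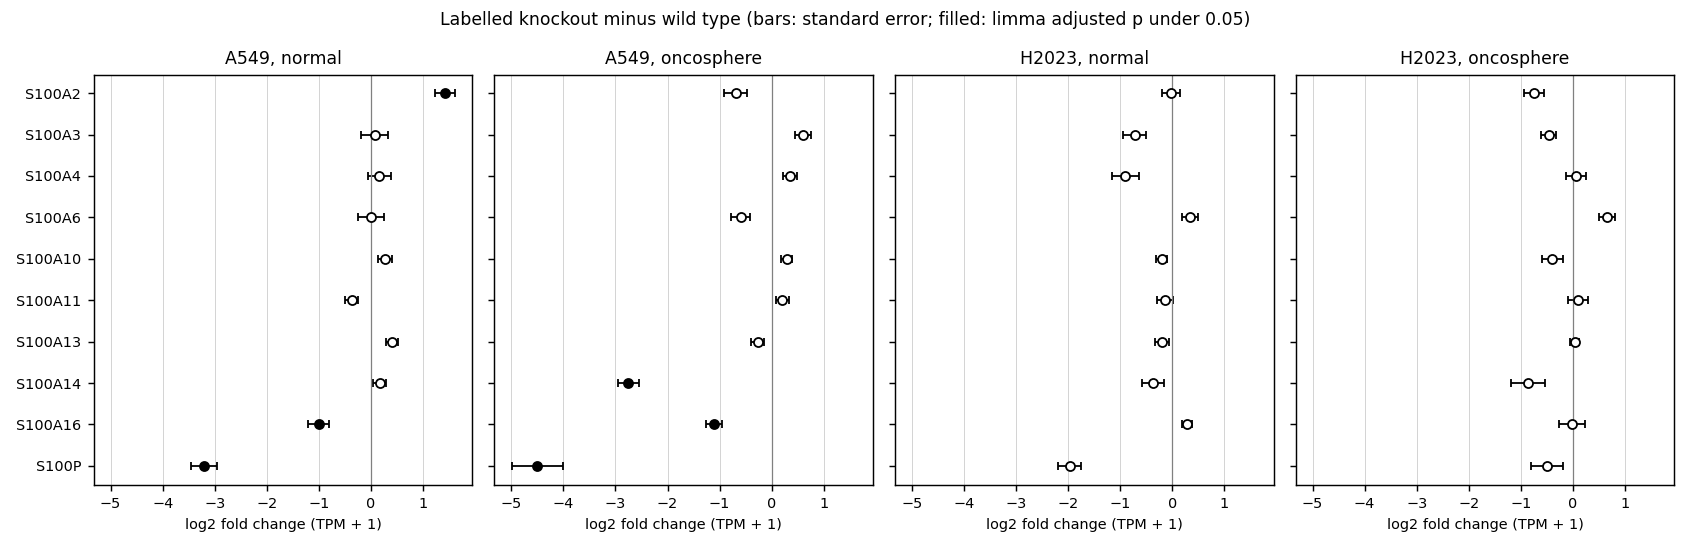
The log2 fold change of TPM + 1, libraries labelled knockout minus wild type, is on the x axis for the 10 S100 genes in each line and culture; bars are standard errors and filled points passed limma at an adjusted p under 0.05. S100P reaches -3.20 and -4.51 in A549, and no point is filled in H2023.

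Whether the genotype difference itself differed was tested as an interaction. Between the cultures of A549 it differed for 2 members, against 6.65% of genes. For S100A2, which rose in normal culture, the difference in effect was -2.12 (SE 0.30, limma adjusted p = 0.013). This call was lost without either normal-culture library labelled knockout, at an adjusted p of up to 0.0573. S100A14 gave -2.92 (SE 0.25, limma adjusted p = 0.00291) and held without any 1 of the 8 libraries. It was at most 0.28 TPM in A549 normal culture and could not fall there. Its difference in effect therefore largely restates the fall in oncospheres and is no separate result. A z test of the fold changes in the authors' deposited tables called neither, at -1.63 for S100A2 (SE 0.76, adjusted p = 0.201) and -5.76 for S100A14 (SE 2.12, adjusted p = 0.0692). It called S100A6 instead (-0.68, SE 0.24, adjusted p = 0.0465), beside 8.31% of genes. For S100P the effects of -3.20 and -4.51 did not differ beyond error (-1.30, SE 0.63, limma adjusted p = 0.239). Between the cultures of H2023 no member and 0.0% of genes passed, and 7.1% of genes had an unadjusted p under 0.05. S100P gave 1.47 there (SE 0.41, limma adjusted p = 0.613). The z test on the authors' deposited tables did call S100P, at 1.49 (SE 0.34, adjusted p = 0.00521), beside 0.39% of genes.

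Between the lines, the genotype effect in normal culture differed for S100A2 (-1.45, SE 0.29, limma adjusted p = 0.00815), S100A13 (-0.59, SE 0.18, limma adjusted p = 0.0462) and S100A16 (1.30, SE 0.31, limma adjusted p = 0.0182), against 12.1% of genes. A positive value means a higher effect in H2023. Of these, S100A2 kept its call without any 1 library, S100A16 lost it in 5 of 8 such fits and S100A13 in 7 of 8. The z test on the authors' deposited tables called 15.3% of genes. Among them were S100A16 (1.27, SE 0.24, adjusted p = 4.48e-06), S100P (1.13, SE 0.35, adjusted p = 0.0126) and S100A10 (-0.54, SE 0.18, adjusted p = 0.0245), but not S100A2 (adjusted p = 0.0675) or S100A13 (adjusted p = 0.192). In oncospheres the effect differed for 6 members, against 16.3% of genes. S100P had the largest difference, 4.01 (SE 0.59, limma adjusted p = 0.000815), since it fell in A549 and its groups overlapped in H2023. S100A14 (1.89), S100A6 (1.25) and S100A16 (1.08) also had a higher effect in H2023, while S100A3 (-1.08) and S100A10 (-0.68) had a lower one. The calls of S100P, S100A14 and S100A6 held without any 1 of the 8 libraries. Those of S100A16, S100A10 and S100A3 were lost in 5, 6 and 7 of the 8 fits, at adjusted p up to 0.125, 0.139 and 0.142. With a pseudocount of 0.1 TPM the call of S100A14 was lost. The z test on the authors' deposited tables called S100P (3.87), S100A6 (1.21) and S100A16 (1.01), beside 12.9% of genes. It did not call S100A14 (2.77, SE 1.18, adjusted p = 0.114), S100A3 (adjusted p = 0.0847) or S100A10 (adjusted p = 0.0579).

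The 2 cultures were compared within a line and genotype by limma, in a fit that held all 8 libraries of that line. These comparisons share libraries with those of genotype, so they are not independent of them. In wild-type A549 cells 5 members rose in oncospheres and 1 fell, against 40.6% of genes called, 19.0% as rises and 21.6% as falls. In the A549 libraries labelled knockout 5 rose and 1 fell, against 20.8% (10.9% and 9.87%). In wild-type H2023 cells 1 fell, against 21.4% called and 17.4% as falls. In the H2023 libraries labelled knockout 3 rose and 2 fell, against 26.9% (7.68% and 19.2%). The members' median log2 difference was 0.48, 0.23, 0.07 and 0.23 in these 4 comparisons, and the median of all genes was -0.01, -0.01, -0.18 and -0.12. Centring the libraries moved all H2023 differences up by 0.25 in wild type and by 0.153 in the libraries labelled knockout, and those of A549 by at most 0.044. Leaving out the mitochondrial genes moved them up by 0.229, 0.212, 0.134 (A549 wild type) and 0.065. Of all calls in H2023, 18.5% (wild type) and 28.6% (labelled knockout) were rises, and 53.6% and 48.0% after centring. Without the mitochondrial genes the share in wild-type A549 went from 46.8% to 57.5%.

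S100P rose in oncospheres in 3 of the 4 comparisons. In wild-type A549 it went from 124 and 127 TPM to 1144 and 774 TPM (2.90, SE 0.44, limma adjusted p = 0.0015), a call that held without any 1 of the 4 libraries. In the A549 libraries labelled knockout it went from 16.8 and 9.59 TPM to 68.0 and 24.0 TPM (1.59, SE 0.44, limma adjusted p = 0.0377). There the 2 oncosphere libraries were far apart, and without replicate 1 of them the difference was 0.86 (limma adjusted p = 0.15). Without either normal-culture library the call was also lost. In the H2023 libraries labelled knockout S100P rose from 251 and 289 to 773 and 1214 TPM (1.84, SE 0.29, limma adjusted p = 0.00595), and the call held without any 1 library. In wild-type H2023 the cultures overlapped, at 864 and 1292 against 1188 and 1572 TPM. The order of the 8 groups by S100P put all 3 highest means in H2023. Those 3 and the wild-type A549 oncospheres overlapped from one to the next, and the lower groups were apart from each other.

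S100A4 rose in both A549 genotypes. It measured 1367 and 973 TPM in wild-type normal culture and 1786 and 1847 TPM in oncospheres (0.65, SE 0.19, limma adjusted p = 0.0258). In the A549 libraries labelled knockout it went from 1449 and 1145 to 2266 and 2377 TPM (0.85, SE 0.19, limma adjusted p = 0.0166). In the H2023 libraries labelled knockout it went from 449 and 575 to 1120 and 1027 TPM (1.08, SE 0.25, limma adjusted p = 0.0236). Oncosphere libraries were the higher ones throughout these 3, while in wild-type H2023 the cultures overlapped. The call was lost without 1 of 3 libraries in each A549 genotype (normal replicate 2 or either oncosphere replicate), with a fold change down to 0.41 in wild type and 0.68 in the other. In H2023 it was lost without any of the 4, at 0.90 to 1.26.

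S100A13 and S100A16 rose in both A549 genotypes. In wild type S100A13 went from 76.5 and 72.1 to 161 and 163 TPM (1.12, SE 0.12, limma adjusted p = 0.000298), and held without any 1 library. In the A549 libraries labelled knockout it went from 106 and 91.2 to 147 and 123 TPM (0.45, SE 0.12, limma adjusted p = 0.0334). S100A16 went from 296 and 212 to 436 and 426 TPM in wild type (0.78, SE 0.20, limma adjusted p = 0.015) and from 141 and 109 to 230 and 174 TPM in libraries labelled knockout (0.69, SE 0.20, limma adjusted p = 0.0441). Both calls of S100A16, and that of S100A13 in the libraries labelled knockout, were lost in 3 of the 4 fits without 1 library. S100A14 rose from 0.09 and 0.00 to 7.56 and 6.32 TPM in wild-type A549 (2.92, SE 0.18, limma adjusted p = 4.54e-05), and held without any 1 library. In the A549 libraries labelled knockout it was at or below 0.30 TPM in both cultures.

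A rise of S100A11 passed in the A549 libraries labelled knockout, from 865 and 842 to 1295 and 1278 TPM (0.59, SE 0.12, limma adjusted p = 0.00962). It missed the threshold without oncosphere replicate 1 (adjusted p = 0.0563). S100A6 rose in the H2023 libraries labelled knockout, from 1462 and 1685 to 2543 and 2452 TPM (0.67, SE 0.15, limma adjusted p = 0.0198), and lost its call without any 1 of the 4 libraries.

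S100A10 fell in H2023. It went from 893 and 970 to 626 and 529 TPM in wild type (-0.69, SE 0.17, limma adjusted p = 0.0362) and from 760 and 859 to 375 and 511 TPM in libraries labelled knockout (-0.88, SE 0.17, limma adjusted p = 0.0135). The cultures did not overlap in either. After centring on the median gene the wild-type difference was -0.44 and no longer passed (limma adjusted p = 0.141), while the other was -0.73 and did (limma adjusted p = 0.026). The wild-type call was also lost without any 1 library, and the other without either normal-culture library. S100A2 fell in both lines among the libraries labelled knockout. It went from 15.1 and 12.8 to 3.24 and 2.72 TPM in A549 (-1.91, SE 0.21, limma adjusted p = 0.000935), held without any 1 library, and from 3.34 and 2.79 to 1.22 and 0.83 TPM in H2023 (-1.01, SE 0.19, limma adjusted p = 0.0109), lost in 2 of 4 such fits. S100A3 fell in wild-type A549, from 55.3 and 31.6 to 16.9 and 21.4 TPM (-1.10, SE 0.24, limma adjusted p = 0.00741). Its normal-culture libraries were the most unlike of any pair of that gene, and the difference was between -1.49 and -0.70 without 1 library, missing the threshold without oncosphere replicate 1 (adjusted p = 0.051). In the H2023 libraries labelled knockout S100A3 went from 9.71 and 8.71 to 14.5 and 12.4 TPM, a rise that passed after centring (0.65, limma adjusted p = 0.0444) but not before (0.50, limma adjusted p = 0.105). Without the mitochondrial genes it passed as well (0.72, limma adjusted p = 0.0474), and so did S100A13 (0.47, limma adjusted p = 0.0473).

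Marker sums moved with culture too. In wild-type A549 the summed TPM of the 4 leukocyte markers measured was between 47.1 and 62.6 in normal culture and between 147 and 228 in oncospheres. In the A549 libraries labelled knockout the ranges were 36.0 to 49.1 and 60.4 to 80.3, and in the H2023 libraries labelled knockout 34.4 to 40.6 and 73.6 to 133. In wild-type H2023, at 38.3 to 41.8 and 32.1 to 92.5, they overlapped. CD68 and CD14 made up most of these sums, and LAPTM5 was at most 0.77 TPM in any library. The sum of the 6 epithelial markers was lower in oncospheres than in normal culture in wild-type A549 and both H2023 genotypes, and higher in the A549 libraries labelled knockout, by the ranges given above. The part of either in the culture results was not tested.

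**Figure D3:**
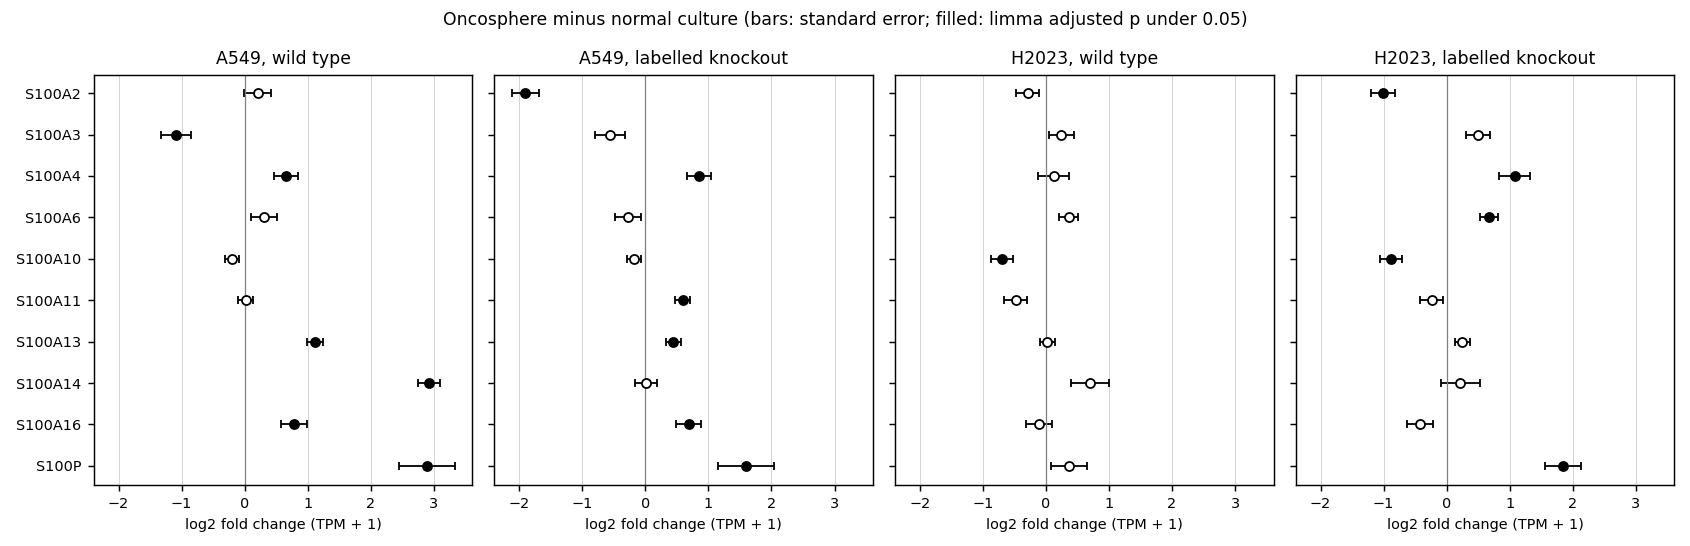
The log2 fold change of TPM + 1, oncosphere minus normal culture, is on the x axis for the 10 S100 genes in each line and genotype; bars are standard errors and filled points passed limma at an adjusted p under 0.05. In A549 the filled points are 5 rises and 1 fall in each genotype, and in wild-type H2023 only S100A10 is filled.

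The wild-type lines differed in S100 expression, with limma over all 16 libraries. In normal culture H2023 had more S100P than A549, 864 and 1292 against 124 and 127 TPM (3.06, SE 0.41, limma adjusted p = 0.000115). It had less S100A6, 1118 and 1370 against 4131 and 3313 TPM (-1.58, SE 0.18, limma adjusted p = 3.38e-05), less S100A16 (-1.38, SE 0.22) and less S100A3 (-1.35, SE 0.23). These 4 members, 1 higher and 3 lower, compare with 41.5% of genes (26.6% higher and 14.9% lower), and each held without any 1 library. Centring moved the fold changes of this comparison by -0.217, which added S100A2 (-0.64, limma adjusted p = 0.0245). It also took the share of rises among all calls from 64.1% to 41.8%. In oncospheres 7 members were lower in H2023 and 0 higher, against 47.8% of genes (24.4% lower and 23.4% higher). S100A16 differed most, at 104 and 74.3 against 436 and 426 TPM (-2.28, SE 0.22, limma adjusted p = 7.11e-06). S100A14 gave -1.65, S100A6 -1.53, S100A13 -1.0, S100A2 -0.92, S100A4 -0.82 and S100A10 -0.48. The call of S100A4 was lost without replicate 2 of either line (adjusted p up to 0.0955), and that of S100A10 in 3 of 4 such fits (adjusted p up to 0.118). S100P no longer differed beyond error there (0.54, SE 0.41, limma adjusted p = 0.311). The members' median difference was -0.13 in normal culture and -0.87 in oncospheres, beside 0.12 and -0.01 for all genes.

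S100 proteins act through partners, and 23 of 24 listed partner genes were measured. Between A549 genotypes 3 passed as higher and 2 as lower in normal culture, against 10.8% of all genes called. In A549 oncospheres 5 passed as higher and 1 as lower, against 13.2%. In H2023 0 partners and 0.0% of all genes passed in each culture. An unadjusted p under 0.05 was found there for 7 and 9 partners, against 18.2% and 15.5% of genes. The authors' deposited tables called 9 partners higher and 3 lower in A549 normal culture (22.1% of genes with an adjusted p). For A549 oncospheres these were 8 and 1 (20.7%), for H2023 normal culture 5 and 2 (10.8%), and for H2023 oncospheres 3 and 0 (5.07%). ANXA6, which binds S100A6, was higher in the A549 libraries labelled knockout in both cultures, at 50.2 and 53.6 against 26.9 and 29.8 TPM in normal culture (0.85, limma adjusted p = 0.016) and 64.5 and 56.0 against 24.0 and 37.0 TPM in oncospheres (0.99, limma adjusted p = 0.0443). PPFIBP1, a liprin that binds S100A4, gave 0.57 and 0.86, and both passed.

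ANXA1, the annexin bound by S100A11, changed in opposite directions in the A549 cultures. It measured 2090 and 2099 TPM in wild type and 1099 and 1220 TPM in their normal-culture counterparts labelled knockout (-0.86, SE 0.15, limma adjusted p = 0.031). In oncospheres the values were 597 and 767 against 1045 and 1164 TPM (0.70, SE 0.16, limma adjusted p = 0.047). The difference between these effects was 1.56 (SE 0.21, limma adjusted p = 0.012). EZR, which encodes ezrin, fell in A549 oncospheres from 112 and 111 to 81.1 and 72.6 TPM (-0.53, SE 0.10, limma adjusted p = 0.031). In H2023 normal culture EZR went the other way, from 207 and 184 to 284 and 287 TPM. The authors' deposited table called that rise (0.54, adjusted p = 0.000172), and the one for H2023 oncospheres did not call EZR (0.77, adjusted p = 0.0862). TLR4 rose in A549 oncospheres from 0.34 and 0.62 to 3.46 and 2.43 TPM (1.41, SE 0.21, limma adjusted p = 0.0169). In H2023 it went from 0.14 and 0.10 to 0.96 and 1.34 TPM in normal culture. In H2023 oncospheres it went from 0.42 and 0.10 to 2.27 and 3.73 TPM. The authors' deposited tables called TLR4 higher in both (3.24, adjusted p = 3.2e-07, and 3.61, adjusted p = 5.37e-08). They did not call it in A549 normal culture (1.11, adjusted p = 0.148). ANXA2, the partner of S100A10, gave 0.43 in A549 normal culture, 0.62 in A549 oncospheres, 0.34 in H2023 normal culture and 0.56 in H2023 oncospheres. Libraries did not overlap in any of these 4, and none passed limma (adjusted p from 0.054 to 0.231). The authors' deposited tables called ANXA2 higher in A549 normal culture (0.51, adjusted p = 0.000755) and A549 oncospheres (0.60, adjusted p = 0.000888). They also called it higher in H2023 normal culture (0.33, adjusted p = 0.0328), but not in H2023 oncospheres (0.47, adjusted p = 0.0755). AHNAK, also listed as a partner of S100A10, was called higher in the authors' deposited table for A549 normal culture (0.88, adjusted p = 0.000269). The same held for H2023 normal culture (0.61, adjusted p = 0.00171) and H2023 oncospheres (1.08, adjusted p = 0.0213), but not for A549 oncospheres (0.46, adjusted p = 0.071).

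Between cultures, most partner genes that passed were lower in oncospheres: 9 of 10 in wild-type A549, 8 of 12 in the A549 libraries labelled knockout, 12 of 12 in wild-type H2023 and 10 of 12 in the H2023 libraries labelled knockout. After centring these were 9 of 11, 7 of 11, 8 of 9 and 10 of 14. Among all genes called, rises made up 46.8%, 52.5%, 18.5% and 28.6% in these comparisons, and 50.9%, 52.9%, 53.6% and 48.0% after centring. MYH9, the non-muscle myosin heavy chain bound by S100A4, fell in all 4, by 1.24, 1.10, 1.12 and 1.0 on the log2 scale. CACYBP, bound by S100A6, fell by 1.40, 0.59, 0.74 and 1.19. ANXA2 fell by 0.69 in wild-type A549, by 1.30 in wild-type H2023 and by 1.08 in the H2023 libraries labelled knockout. All of these passed limma, also after centring. Both genes of the S100A10 and annexin A2 complex thus fell in both H2023 genotypes. In wild type the fall of S100A10 did not pass after centring (-0.44, limma adjusted p = 0.141).

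**Figure D4:**
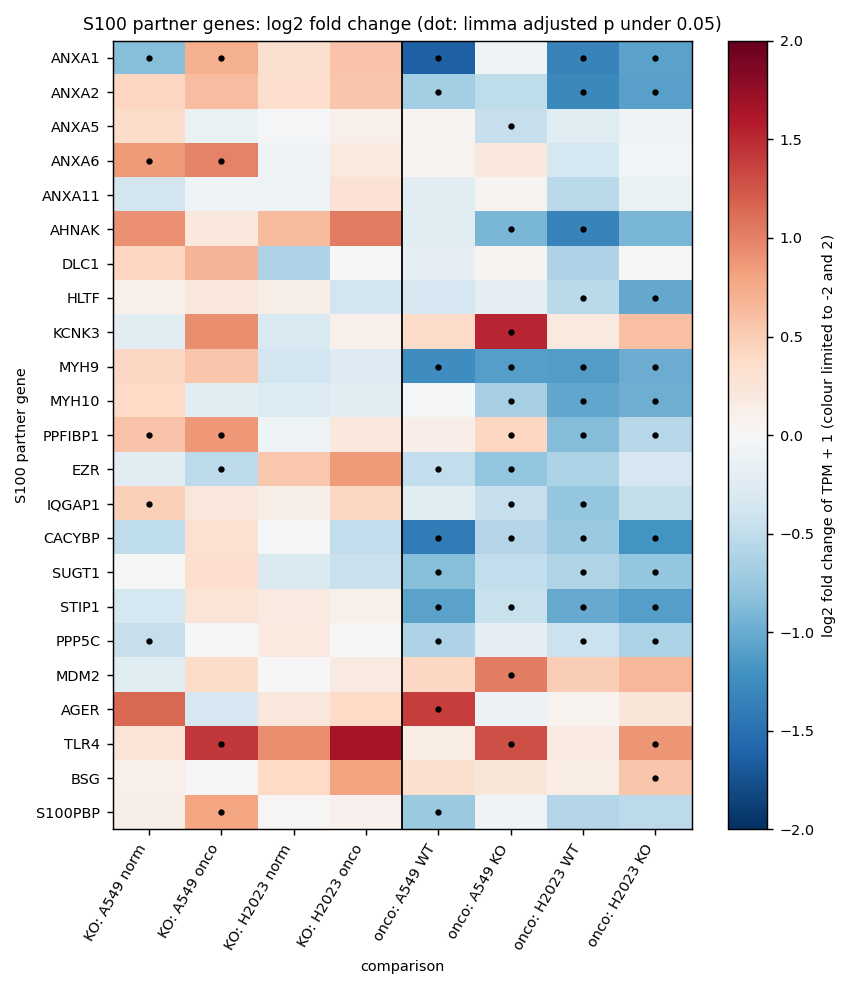
Rows are the 23 S100 partner genes measured and columns the 4 genotype comparisons (KO, libraries labelled knockout minus wild type) and the 4 culture comparisons (onco, oncosphere minus normal); colour is the log2 fold change of TPM + 1, limited to -2 and 2, and dots mark limma adjusted p under 0.05. Dots stand in the A549 but not the H2023 genotype columns, and most dots in the culture columns are on falls.

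Of 9 neighbouring genes of the chromosome 1 cluster that are not S100 genes, 1 rose and 1 fell between A549 genotypes in normal culture, where 10.8% of all genes passed. In A549 oncospheres 0 passed, against 13.2% of genes, and in H2023 0 passed in either culture, against 0.0%. Their median log2 fold changes were -0.08, -0.07, -0.35 and -0.17. Within the cluster, S100A14, S100A16 and S100A13 are consecutive members. In A549 oncospheres their genotype differences were -2.75, -1.10 and -0.27, and in A549 normal culture 0.16, -1.01 and 0.40.

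For the 3 members with the widest range of group means, the genes most like them over the 16 libraries were found by Pearson's r of log2(TPM + 1), among 14823 genes with a mean of at least 1 TPM. These values are descriptions, and the libraries fall into 8 groups that share line, culture and genotype. S100P was closest to IL1R2, the decoy receptor of interleukin-1 (r = 0.968), then HOOK1 (0.965) and SECISBP2 (0.957). IL1R2 had its highest group mean, 19.0 TPM, in wild-type H2023 oncospheres and its lowest, 0.43 TPM, in the A549 normal libraries labelled knockout, as S100P did. Such a match follows from the search for the highest r and is no separate result. S100A14 was closest to CATSPERB (0.962), HAO1 (0.961) and CLRN3 (0.96), with group means of 6.98, 25.2 and 6.58 TPM in wild-type A549 oncospheres. Their other group means were at most 1.39, 2.11 and 1.09 TPM, so they met the filter on the mean through that group. That they were highest there, like S100A14, follows from the filter and the search and is no separate result. S100A2 had weaker likenesses, to GBE1 (0.871), CABIN1 (0.871) and KDM3A (0.87).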

How the data were processed

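Libraries were stranded TruSeq mRNA libraries from 1 µg of total RNA, per the labels' protocols, and HISAT2, StringTie and GRCh38 are named in the submitters' processing notes, without versions. The authors deposited 4 tables, 1 per line and culture, with TPM per library. A column's name gave its culture, genotype and replicate, and its table gave the line. Per the file headers, the authors' deposited tables also hold a mean normalized count over 4 libraries (a signal, summing to 20453740 to 22760512), a log2 fold change with its standard error, a test score and p-values. The score has the opposite sign to the fold change in all 18361 rows, so the fold change sets each direction. Identical repeats of 119 identifiers were dropped, leaving 18227 genes.

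The main test was limma 3.58.1 (R 4.3.3) with a trend, on log2(TPM + 1), two-sided, unfiltered, with Benjamini-Hochberg adjustment over all genes and a threshold of 0.05. Genotype was fitted on the 4 libraries of a table, culture and its interaction on the 8 of a line, and line contrasts on all 16. Culture and line contrasts cross tables, since TPM is scaled within each library. On simulated data with 200 changed genes the A549 normal genotype test recovered 149, with 4 false calls. Of these, 19 had a change of 1 log2 unit, the smallest simulated, and 65 each had changes of 2 and 3. Genes of low level were not changed, and each gene had 1 spread for all groups. The H2023 normal genotype test recovered 151 there but called 0 genes in the real data, so the simulation does not match the data in H2023. Same-numbered libraries of the 2 genotypes deviated together with r of 0.0275 to 0.461 in the 4 tables, and the labels tie no numbers together, so they were not paired. Alternatives were another pseudocount (0.1), a mean TPM of at least 1, no trend, a replicate block, scaling without 15 mitochondrial genes or on the median gene, other sets of libraries, leaving out 1 library, and the authors' results. The members and lists were chosen with earlier results of these data known. Named were all members, partners past the threshold (at most the 3 largest changes each way) with the direct partners of described members, and the 3 genes most like each of 3 members. Protein sequences were not used here. A further listed partner is not reported here.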

Additional observations from a re-analysis of the deposited data

Results flagged for a closer look

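The genotype effect differed between cultures or lines for these members by an interaction test with limma, on the log2(TPM + 1) scale. Between the A549 cultures, oncosphere minus normal, the difference was -2.12 for S100A2 and -2.92 for S100A14. S100A14 measured 0.09 and 0.00 TPM in wild-type A549 normal culture, so no fall was possible there. Between the lines in normal culture, H2023 minus A549, it was -1.45 for S100A2, -0.59 for S100A13 and 1.3 for S100A16. In oncospheres it was -1.08 for S100A3, 1.25 for S100A6, -0.68 for S100A10, 1.89 for S100A14, 1.08 for S100A16 and 4.01 for S100P. The shares of all genes called were 6.65%, 12.1% and 16.3%, in the same order. Among the differences listed, the z test on the authors' deposited tables called only S100A16 in both cultures, and S100A6 and S100P in oncospheres. Fits without 1 library are given with the interaction results above.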

How the results depend on the processing

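The direction of every member called between genotypes, cultures or lines was the same under all alternatives run. The number of members called moved as follows. Shares of all genes called are given above for the main test and the authors' results, but not for the other alternatives. A count that moved therefore says nothing about the members as a set. Between genotypes, A549 normal culture gave 0 to 0 without 1 library against 3, 2 without a trend (losing S100A16), and 4 without mitochondrial genes, when centred or over 16 libraries (each adding S100A13) and in the authors' deposited table (adding S100A10). A549 oncospheres gave 5 instead of 3 with a mean TPM of at least 1 (adding S100A3 as higher and S100A6 as lower). They gave 5 in a fit over 16 libraries (adding S100A2 and S100A6, both as lower) and 4 in the authors' deposited table (adding S100A6). Without 1 library their calls were lost. H2023 normal culture gave 1 instead of 0 with that filter, 1 when centred on the median gene, 1 over 16 libraries and 1 in the authors' deposited table, and H2023 oncospheres gave 1 instead of 0 in the authors' deposited table. Between cultures, wild-type A549 gave 3 to 6 without 1 library against 6. The A549 libraries labelled knockout gave 3 without a trend and 1 to 5 without 1 library against 6. Wild-type H2023 gave 0 without mitochondrial genes, 0 when centred, 2 over 16 libraries (S100A11 joining S100A10) and 0 to 0 without 1 library against 1. The H2023 libraries labelled knockout gave 1 to 3 without 1 library against 5, 7 without mitochondrial genes (adding S100A3 and S100A13) and 6 when centred (adding S100A3). Between lines in normal culture there were 5 instead of 4 when centred (adding S100A2) and with a pseudocount of 0.1 or a fit over 4 libraries (both adding S100A14), and in oncospheres 6 instead of 7 over 4 libraries (losing S100A10). For the interactions, A549 between cultures gave 1 to 2 without 1 library and 1 from the authors' fold changes against 2, that 1 being S100A6 while S100A2 and S100A14 were lost. It gave 3 without mitochondrial genes and over 16 libraries (adding S100A13). H2023 between cultures gave 1 from the authors' fold changes against 0. Between lines, normal culture gave 1 to 4 without 1 library against 3, 4 with a mean TPM of at least 1 or without mitochondrial genes (adding S100A4), 2 without a trend (losing S100A13) and 3 from the authors' fold changes, of which only S100A16 was shared. Oncospheres gave 3 to 5 without 1 library and 3 from the authors' fold changes against 6, 5 with a pseudocount of 0.1 (losing S100A14) and 4 without a trend (losing S100A3 and S100A10). The causes were not tested, except that fits without 1 library have fewer samples.

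With the replicate block the counts between genotypes, cultures and lines did not change (3 in A549 normal culture, 3 in A549 oncospheres), while the interaction between A549 cultures gave 3 (adding S100A13) and that between lines in normal culture gave 2 (losing S100A13). The labels do not say whether the numbers pair the samples, so this says nothing about effect size. Replicate 2 had a higher mitochondrial share of TPM than replicate 1 in every group. The gap was widest in the A549 normal libraries labelled knockout (18.7% against 13.4%). Whether same-numbered libraries shared a batch was not tested. Over single members, 427 values kept direction and call under an alternative, 72 lost the call, 21 gained it and 10 uncalled values moved. Differences of genes near 0 TPM, such as S100A14, rest on few reads, and how few is unknown.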

Other observations

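Only 3 other S100 genes had a row, S100A1, S100A8 and S100A9. S100A8 and S100A9 form calprotectin, a secreted complex best known from neutrophils. S100A9 rose in oncospheres in all 4 culture comparisons by limma. In wild-type A549 it went from 1.05 and 5.55 TPM to 512 and 439 TPM (7.02, SE 0.48, adjusted p = 6.05e-05), and in the A549 libraries labelled knockout from 0.73 and 0.61 to 138 and 80.0 TPM (5.99, SE 0.48, adjusted p = 0.000309). In wild-type H2023 it went from 37.6 and 127 to 350 and 925 TPM (3.02, SE 0.65, adjusted p = 0.0223), and in the H2023 libraries labelled knockout from 4.71 and 7.71 to 255 and 242 TPM (5.14, SE 0.65, adjusted p = 0.00297). Between genotypes it fell in A549 oncospheres (-2.16, SE 0.26, adjusted p = 0.00998). The wild-type libraries were also the higher ones in the other 3 comparisons, which did not pass limma, while the authors' deposited tables called S100A9 lower in H2023 normal culture (-3.72, adjusted p = 0.00122) and H2023 oncospheres (-1.42, adjusted p = 0.012). S100A8 was far lower, at most 34.5 TPM, and rose in both A549 genotypes, from 0.00 and 0.92 to 16.5 and 18.5 TPM in wild type and from 0.00 and 0.00 to 34.5 and 10.8 TPM in the libraries labelled knockout. The summed TPM of the 4 leukocyte markers was also higher in oncospheres than in normal culture in 3 of the 4 comparisons, at 147 to 228 against 47.1 to 62.6 in wild-type A549, 60.4 to 80.3 against 36.0 to 49.1 in the A549 libraries labelled knockout and 73.6 to 133 against 34.4 to 40.6 in the H2023 libraries labelled knockout. In wild-type H2023 it overlapped (32.1 to 92.5 against 38.3 to 41.8). Most of it was CD68 and CD14, with LAPTM5 at or below 0.77 TPM, and its part in the rise of S100A9 was not tested. S100A1, which overlaps S100A13, rose in wild-type A549 oncospheres, from 0.66 and 0.87 to 2.76 and 2.52 TPM (1.05, SE 0.21, adjusted p = 0.00496).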
